A study of Mus musculus with 6 samples.

Results

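The genes of the reelin pathway were followed here through a map of DNA double-strand breaks. They are 7 protein-coding genes of 21755 in the annotation: the ligand *Reln*, the receptors *Lrp8* and *Vldlr*, the intracellular adaptor *Dab1*, the kinase *Fyn*, and the adaptors *Crk* and *Crkl*. They were selected on their place in the pathway with earlier counts of break ends in these gene bodies and libraries in view, so their gene-body values are given as a description. Breaks were mapped by BLISS, in which an adaptor is ligated to broken DNA ends in fixed nuclei, so that the 5′ end of each sequenced read marks 1 break end. The 6 libraries came from sorted forebrain neurons of CK-p25 mice and fall into Step2, Step1 and Con, with 2 libraries in each group. Every library, Con included, is labelled with the CK-p25 genotype and with 2 weeks of induction by taking doxycycline out of the diet. In this model the Camk2a promoter drives the p25 transgene through a doxycycline-controlled activator, so that p25 is made in excitatory forebrain neurons, where it overactivates the kinase Cdk5. The labels give no age, do not say what separates Step2, Step1 and Con, and do not say whether the 2 libraries of a group came from separate animals, so a p-value here reflects how much the libraries of a group vary, and that variation may be purely technical. DNA reads cannot check the neuronal label through marker expression.

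Reelin is a large secreted glycoprotein that directs the layering of cortical neurons in development. In the adult forebrain it is made mainly by interneurons and tunes synapses and dendrites. It binds the lipoprotein receptors Lrp8, also called ApoER2, and Vldlr. Receptor clustering lets Fyn and related kinases phosphorylate Dab1 on tyrosines, and phosphorylated Dab1 recruits Crk and Crkl, which pass the signal to the Rap1 pathway.

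The 7 gene bodies differed widely in length and therefore in the number of break ends each could collect. Coordinates are those of GENCODE vM21 on mm10. *Reln* (ENSMUSG00000042453.14) lies at chr5:21884454-22344702 on the minus strand and spans 460 kb. *Lrp8* (ENSMUSG00000028613.14) lies at chr4:107802261-107876840 on the plus strand and spans 74.6 kb. *Vldlr* (ENSMUSG00000024924.14) lies at chr19:27216484-27254231 on the plus strand and spans 37.7 kb. *Dab1* (ENSMUSG00000028519.16) lies at chr4:103619359-104744844 on the plus strand, and of its 1125 kb only 22.5%, from base 104479209 to base 104732162, spans the coding exons. *Fyn* (ENSMUSG00000019843.14) lies at chr10:39368855-39565381 on the plus strand and spans 197 kb. *Crk* (ENSMUSG00000017776.15) lies at chr11:75679259-75706908 and *Crkl* (ENSMUSG00000006134.4) at chr16:17451987-17487434, both on the plus strand, with lengths of 27.7 kb and 35.4 kb.

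Libraries held 1526487 and 1480461 reads in Step2, 2403238 and 2043098 in Step1, and 2300995 and 2273508 in Con. Break ends were scaled to counts per 1000000 reads (CPM) after leaving out 26 windows of 10 kb with piled-up reads. Over the 13811 genes tested, the replicate libraries correlated across genes at r = 0.901 in Step2, 0.937 in Step1 and 0.917 in Con, where genes are not independent replicates. Reads per distinct position were 1.24 and 1.26 in Step2, 1.19 and 1.21 in Step1, and 1.29 and 1.42 in Con, so repeated reads at a position were most frequent in the Con libraries. Break ends in bulk libraries give breaks relative to all reads and cannot tell more broken cells from more breaks per cell. Intervals on pooled counts cover counting error only.

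The feature that stood out within these genes was the start of *Fyn*, and the 300 bases around it are shown because they held 68 break ends over the 6 libraries. The window is chr10:39369549-39369848 on the plus strand (RefSeq, GRCm38.p6, the assembly of mm10), and runs from 250 bases before to 50 after the RefSeq start at base 39369799. The *Reln* window is shown beside it because it held 0 ends: it is chr5:22344656-22344955 on the minus strand, with the start at base 22344705. In the *Fyn* sequence capitals mark bases at which an end was found in at least 2 libraries. In the *Reln* sequence capitals mark the GC box GGGCGG.
Fyn start window: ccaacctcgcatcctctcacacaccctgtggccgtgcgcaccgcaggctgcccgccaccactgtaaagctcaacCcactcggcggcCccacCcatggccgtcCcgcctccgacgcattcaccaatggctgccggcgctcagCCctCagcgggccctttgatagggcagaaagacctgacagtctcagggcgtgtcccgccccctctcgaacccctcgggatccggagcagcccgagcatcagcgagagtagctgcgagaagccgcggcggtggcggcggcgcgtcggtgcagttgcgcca
Reln start window: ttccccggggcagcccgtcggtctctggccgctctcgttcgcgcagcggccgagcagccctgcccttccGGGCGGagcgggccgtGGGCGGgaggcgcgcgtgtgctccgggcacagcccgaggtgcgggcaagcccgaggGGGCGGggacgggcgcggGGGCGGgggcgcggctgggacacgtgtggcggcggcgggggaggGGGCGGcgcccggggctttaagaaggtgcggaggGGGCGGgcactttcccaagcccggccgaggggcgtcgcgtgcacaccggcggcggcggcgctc
The GC box was sought on both strands. It occurred 6 times in the *Reln* window, all on the gene's strand, and once in the *Fyn* window, on the opposite strand. Of 32619 such RefSeq windows, 35.9% held it on either strand. These matches describe the letters alone.

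All 68 ends in the *Fyn* window lay upstream of the RefSeq start, and 63 of them were minus-strand reads against 5 plus-strand reads. They fell on 27 distinct positions and all had a mapping quality score of at least 30. By library, the window held 4 and 13 ends in Step2, 15 and 8 in Step1, and 9 and 19 in Con. Every library had ends there, and the 3 groups overlapped. Scaled by depth the window averaged 5.96 ± 4.54 CPM in Step2, 5.35 ± 1.74 CPM in Step1 and 6.39 ± 3.27 CPM in Con (SD, n = 2 each), so the groups differed by less than the spread between libraries. Of the RefSeq windows, 0.671% held at least as many ends, and 0.874% held ends on at least as many distinct positions. The median window held 1 end, and 31.8% held none. *Fyn* was singled out after the values of all members' starts were seen, so this is a description.

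The densest position of the *Fyn* start was base 39369691 on the minus strand, 108 bases upstream of the RefSeq start. It lies 836 bases into the longer GENCODE model, in an intron. It was hit in all 6 libraries, with 1 and 4 reads in Step2, 4 and 2 in Step1, and 2 and 3 in Con. The densest positions of the 2 longest members differed from this: the densest of *Reln* held 26 reads and that of *Dab1* held 13, in each case all in Con library 2. The 3 sites are shown on the strand of the read, with capitals from the first sequenced base on. They lie at chr10:39369671-39369711 (minus strand), chr5:22293626-22293666 (plus strand) and chr4:104225647-104225687 (minus strand).
Fyn densest position: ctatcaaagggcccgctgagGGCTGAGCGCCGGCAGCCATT
Reln densest position: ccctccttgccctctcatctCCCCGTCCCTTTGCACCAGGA
Dab1 densest position: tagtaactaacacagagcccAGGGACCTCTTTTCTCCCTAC

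Within 1 kb of the start, *Fyn* held 82 ends (95% Poisson interval 65.2 to 102), 8.69 times the 9.44 that its own mean density over the gene body gives. The counts by library were 6 and 16 in Step2, 17 and 10 in Step1, and 10 and 23 in Con. *Reln* held 1 end within 1 kb of its start (interval 0.0253 to 5.57) where its body density gives 9.22. The outer start of *Dab1* held 16 ends (interval 9.15 to 26.0) against 9.36 from the body, and its inner start held 6. *Lrp8* has 3 RefSeq starts, with 10, 15 and 6 ends where the body gives 7.54, and the interval of the middle one was 8.40 to 24.7. *Vldlr* has 2, at bases 27216484 and 27217020, with 9 and 6 ends. Their windows overlap, so these 2 counts can include the same ends. *Crk* and *Crkl* held 9 and 10 ends at their starts. Of the members' starts, that of *Fyn* and the middle start of *Lrp8* thus had intervals above the body density, and that of *Reln* had one below it. The value for *Lrp8* rests on 15 ends and on a body density at percentile 15.9 of the genes tested. The intervals were not adjusted for the number of starts examined. The GC content of the *Fyn* window was 69% over 300 bases and that of the *Reln* window 80.7%. Both windows were thus rich in GC, and the part of base composition in these counts was not tested.

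**Figure D1:**
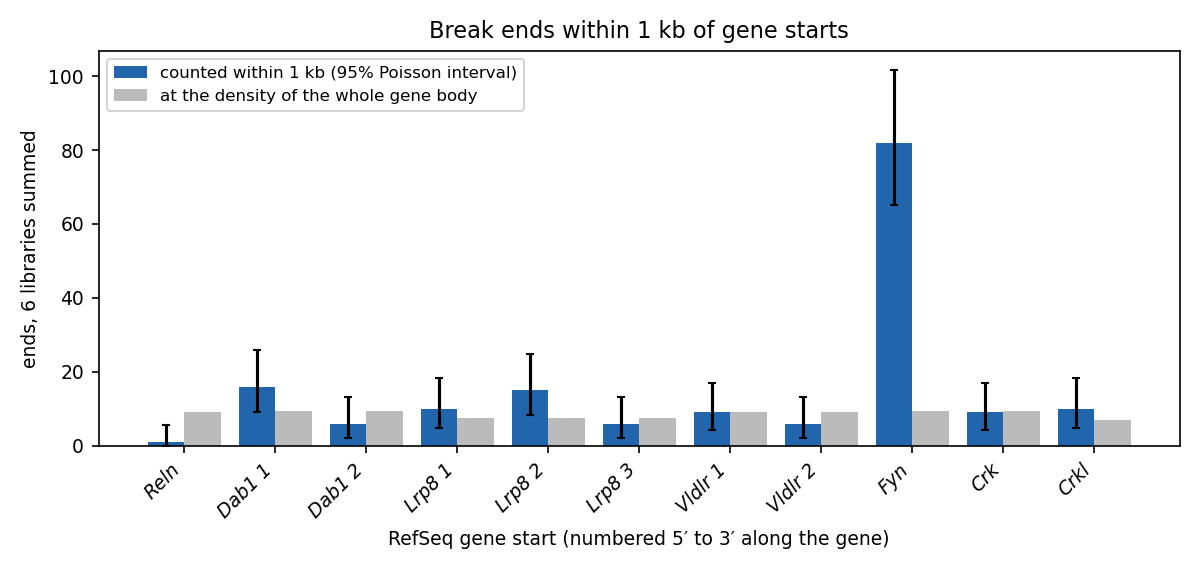
Break ends within 1 kb of each RefSeq start of the 7 genes, summed over the 6 libraries (blue, with 95% Poisson intervals), beside the number that the mean density of the same gene body gives (grey). *Fyn* stands above its body density with 82 ends. The middle start of *Lrp8*, with 15 ends, lies above the low density of its own body, and *Reln* lies below its own with 1. The windows of the 2 *Vldlr* starts overlap.

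Over whole gene bodies, 5 of the 7 members lay near the typical gene in their mean density of ends, and the means of *Crkl* and *Lrp8* lay below it. Densities are given as CPM per kb of gene body, so that genes of different length can be compared. Averaged over the 6 libraries they were, from high to low, 0.412 ± 0.0403 for *Fyn*, 0.412 ± 0.122 for *Crk*, 0.406 ± 0.0239 for *Dab1*, 0.403 ± 0.0185 for *Reln*, 0.391 ± 0.0728 for *Vldlr*, 0.332 ± 0.0740 for *Lrp8* and 0.307 ± 0.0962 for *Crkl* (SD, n = 6 libraries). The ranges of all neighbours in this order overlapped. The median over all genes tested was 0.393. *Crkl* lay at percentile 8.51 of the genes tested, *Lrp8* at 15.9, and the other 5 between 48.6 and 62.2. *Crkl* and *Lrp8* rested on 125 and 281 ends in all, against 5265 for *Dab1*. Single libraries of both lay above the median, with *Lrp8* at 0.436 in Con library 2 and *Crkl* at 0.397 in Con library 1. With 1 read per position and strand the means were 0.364 ± 0.0697 for *Lrp8* and 0.322 ± 0.0902 for *Crkl*. The median over all genes was not computed for that count, so their place among all genes in it is not given.

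**Figure D2:**
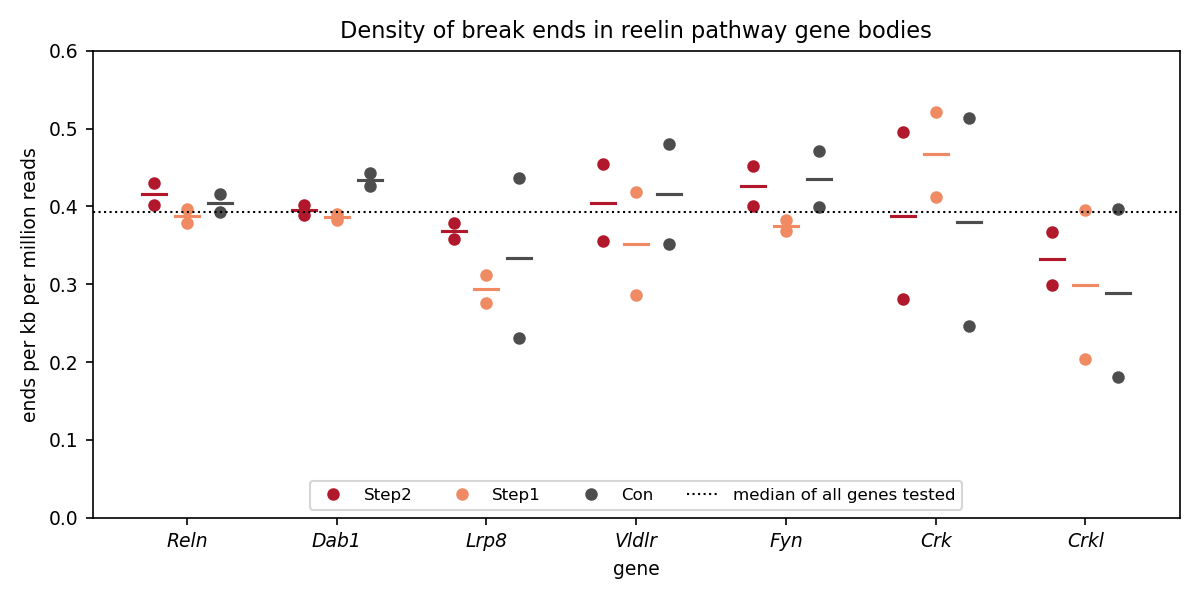
Break ends of the 7 genes as CPM per kb of gene body in each library, with Step2, Step1 and Con side by side, short lines at their means and a dotted line at the median of all genes tested. The 2 Con points of *Dab1* lie above its 4 other points, and the libraries of *Lrp8*, *Vldlr*, *Crk* and *Crkl* scatter widely.

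*Reln*, the secreted ligand, held 270 and 281 ends in Step2, 416 and 338 in Step1, and 398 and 418 in Con. Scaled by depth this was 185 and 198 CPM in Step2, 182 and 174 CPM in Step1, and 181 and 191 CPM in Con. The Step2 and Con libraries overlapped, as did the Step1 and Con libraries, and both Step2 values lay above both Step1 values. The log2 fold change of *Reln* was 0.04 ± 0.10 (SE) for Step2 against Con, −0.06 ± 0.09 for Step1 against Con and 0.10 ± 0.10 for Step2 against Step1. Reads repeated at a position bore on these values. With 1 read per position and strand, the density of *Reln* was 0.421 and 0.436 in Step2. It was 0.393 and 0.393 in Step1, and 0.397 and 0.374 in Con. Step2 then lay above Con in both libraries, with a log2 fold change of 0.15 ± 0.09 and an adjusted p of 0.695 by limma. How many of all genes did so was not counted in this setting. With all reads, 15.2% of genes lay higher in Step2 than in Con without overlap. Gm10475, an antisense gene model of 43.1 kb, overlaps *Reln* and holds 208 of its ends, and break ends cannot be assigned to one or the other.

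*Lrp8*, the receptor tied to synaptic plasticity, held 39 and 40 ends in Step2, 53 and 40 in Step1, and 38 and 71 in Con. These were 26.7 and 28.2 CPM in Step2, 23.2 and 20.6 CPM in Step1, and 17.2 and 32.5 CPM in Con. Step2 lay above Step1 in both libraries, and the 2 Con libraries enclosed all others. The log2 fold change was 0.22 ± 0.28 for Step2 against Con and −0.10 ± 0.27 for Step1 against Con, and its sign depended on which Con library was used. Without Con library 1 it was −0.24 for Step2 and −0.56 for Step1, and without Con library 2 it was 0.67 for Step2 and 0.35 for Step1. The antisense models Lrp8os2 and Lrp8os1 overlap *Lrp8* and share 48 and 10 of its ends.

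*Vldlr*, the receptor that also binds very-low-density lipoprotein, held 25 and 19 ends in Step2, 36 and 21 in Step1, and 40 and 29 in Con. These were 17.1 and 13.4 CPM in Step2, 15.8 and 10.8 CPM in Step1, and 18.2 and 13.3 CPM in Con. All 3 groups overlapped. On the log2 scale *Vldlr* had a fold change of −0.02 ± 0.34 for Step2 against Con and −0.22 ± 0.32 for Step1 against Con. The value for Step2 against Con was 0.20 without Con library 1 and −0.24 without Con library 2, and that for Step1 was −0.00 without Con library 1 and −0.45 without Con library 2.

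*Dab1*, the adaptor that carries the signal into the cell, held 638 and 642 ends in Step2, 1003 and 837 in Step1, and 1056 and 1089 in Con. These were 437 and 453 CPM in Step2, 440 and 431 CPM in Step1, and 479 and 499 CPM in Con. Both Con libraries lay above the 4 others, and Step2 and Step1 overlapped. The log2 fold change was −0.14 ± 0.06 for Step2 against Con, with an adjusted p of 0.580 by limma. For Step1 against Con it was −0.17 ± 0.05, with an adjusted p of 0.328 by limma. For Step2 against Step1 it was 0.03 ± 0.06.

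With 1 read per position and strand, *Dab1* had 437 and 482 CPM in Step2, 445 and 428 CPM in Step1, and 488 and 505 CPM in Con. The Step1 value against Con then passed, at a log2 fold change of −0.18 ± 0.04 and an adjusted p of 0.0372 by limma, where 0.118% of the genes tested were called. In the same setting 0.126% were called for Step2 against Con and 0.0315% for Step2 against Step1, with 0 members among them. This was the one call of any member under any setting run. Within the first sequencing run the log2 fold change was −0.19 for Step2 and −0.21 for Step1 against Con, and within the second −0.09 for Step2 and −0.13 for Step1. After removal of a smooth on gene GC content it was −0.09 for Step2 and −0.14 for Step1. The direction for *Dab1* was the same in both runs and under the GC correction. All of these fits use reads of the same 6 libraries, so they give no independent support.

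Long genes as a class were slightly lower outside Con, and *Dab1* was read beside them. Of the 154 genes of 600 to 3000 kb, 83.1% were lower in Step2 than in Con and 81.8% were lower in Step1, with median log2 fold changes of −0.08 for both. Among 176 genes of 0.5 to 2 times the length of *Dab1*, 35.8% had a lower value than *Dab1* for Step2 against Con and 16.5% for Step1 against Con. *Dab1* therefore lay on the low side of genes of its length without standing outside them.

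Against the 100 kb on either side, the density in *Dab1* was 0.893 and 0.781 times its flanks in Step2, 0.914 and 0.831 times in Step1, and 1.05 and 1.31 times in Con. The flanks themselves had 0.435 and 0.515 CPM per kb in Step2, 0.427 and 0.461 in Step1, and 0.406 and 0.339 in Con. They were thus denser outside Con, so the ratios reflect the flanks as well as the gene body. With 50 kb flanks the ratios were 1.11 and 0.864 in Step2, 0.768 and 0.885 in Step1, and 0.957 and 1.29 in Con, and Step2 overlapped Con. The separation of Step2 from Con by this measure thus depended on the flank chosen.

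Along *Dab1*, values below those of Con were seen both in the noncoding upstream stretch and over the coding span. Over the 748 kb between the outer and inner starts, the density was 0.396 ± 0.0034 in Step2, 0.379 ± 0.0313 in Step1 and 0.438 ± 0.0115 in Con (SD, n = 2 each), and neither Step2 nor Step1 overlapped Con. Over the 253 kb of the coding span it was 0.384 ± 0.0214 in Step2, 0.376 ± 0.0360 in Step1 and 0.419 ± 0.0117 in Con, again without overlap. With 1 read per position and strand, the coding span had 0.365 and 0.434 in Step2 and 0.424 and 0.450 in Con, so Step2 then overlapped Con there. Between them, in the 112 kb before the first coding base, it was 0.420 in Step2, 0.452 ± 0.0723 in Step1 and 0.449 in Con, and Step1 overlapped Con. In 10 equal parts of the gene, Step2 lay below Con without overlap in 4 of 10 and above it in 1, and Step1 lay below Con in 4 of 10 and above it in 0. Of all gene bodies tested, 21.7% lay below Con without overlap in Step2 and 21.3% in Step1. The share over parts of other genes was not counted.

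*Fyn*, the Src-family kinase that phosphorylates Dab1, held 115 and 126 ends in Step2, 165 and 146 in Step1, and 173 and 202 in Con. These were 78.8 and 88.9 CPM in Step2, 72.3 and 75.2 CPM in Step1, and 78.5 and 92.5 CPM in Con. Step1 was the lowest group, below both Step2 and Con without overlap, and Step2 and Con overlapped. Its log2 fold change was −0.02 ± 0.15 for Step2 against Con, −0.21 ± 0.14 for Step1 against Con and 0.18 ± 0.16 for Step2 against Step1. The adjusted p for Step1 against Con was 0.785 by limma. Without Con library 1 the value was −0.14 for Step2 and −0.33 for Step1 against Con, and without Con library 2 it was 0.09 for Step2 and −0.09 for Step1.

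With 1 read per position and strand, *Fyn* had 79.3 and 79.0 CPM in Step2, 70.01 and 74.6 CPM in Step1, and 81.8 and 92.4 CPM in Con. Both Step2 libraries then lay below both Con libraries, so whether Step2 overlapped Con depended on repeated reads. The log2 fold change for Step2 against Con was −0.13 ± 0.14, with an adjusted p of 0.85 by limma. How many of all genes separated in this way was not counted in this setting. With all reads, 21.7% of genes lay lower in Step2 than in Con without overlap. Step1 was below Step2 and Con in this count too.

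The start of *Fyn* carried 8.85% of its ends in 0.990% of its length. Without 1 kb on either side of the start, the density of *Fyn* was 0.384 and 0.399 in Step2, 0.333 and 0.360 in Step1, and 0.380 and 0.421 in Con. Step1 remained below Step2 and Con by this measure. This setting was chosen after the data were seen. The antisense model Gm16365 overlaps the far end of *Fyn* and shares 36 of its ends.

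*Crk* and *Crkl*, the related adaptors that bind phosphorylated Dab1, had too few ends for their groups to be told apart at this depth. *Crk* held 20 and 11 ends in Step2, 26 and 28 in Step1, and 15 and 31 in Con, or 13.7 and 7.76 CPM in Step2, 11.4 and 14.4 CPM in Step1, and 6.81 and 14.2 CPM in Con. *Crkl* held 19 and 15 ends in Step2, 32 and 14 in Step1, and 31 and 14 in Con, or 13.0 and 10.6 CPM in Step2, 14.0 and 7.21 CPM in Step1, and 14.1 and 6.41 CPM in Con. For both genes the 2 Con libraries lay farther apart than those of Step2 or Step1. The log2 fold change of *Crk* was 0.09 ± 0.43 for Step2 against Con and 0.36 ± 0.37 for Step1 against Con. Without Con library 1, *Crk* was at −0.43 for Step2 and −0.16 for Step1, and without Con library 2 at 0.61 for Step2 and 0.88 for Step1. That of *Crkl* was 0.31 ± 0.43 for Step2 against Con and 0.12 ± 0.40 for Step1 against Con. Without Con library 1, *Crkl* was at 0.87 for Step2 and 0.67 for Step1, and without Con library 2 at −0.24 for Step2 and −0.43 for Step1. With 1 read per position and strand, *Crkl* was at −0.16 for Step1 and *Crk* at −0.07 for Step2. The signs for both genes thus depended on which Con library was used and on repeated reads.

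Taking the 7 genes as a list, 0 were called in any of the 3 comparisons by limma with Benjamini-Hochberg adjustment over all genes tested. The share of all genes called was 0.0941% for Step2 against Con, 0.123% for Step1 against Con and 0.0434% for Step2 against Step1. At an unadjusted p under 0.05, the members numbered 1, 1 and 0 in these comparisons, against 7.77%, 7.08% and 3.42% of all genes. For Step2 against Con, 1 member had groups that did not overlap, *Dab1*, which was lower, against 36.9% of all genes in either direction and 21.7% lower. For Step1 against Con, 2 members did, *Dab1* and *Fyn*, both lower, against 36.7% of all genes in either direction and 21.3% lower. For Step2 against Step1, 3 members did, *Reln*, *Lrp8* and *Fyn*, all higher, against 34% of all genes in either direction and 16.1% higher. Counts this small beside such shares describe the members and are no result about them.

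The median log2 fold change of the members was 0.04 for Step2 against Con, −0.10 for Step1 against Con and 0.18 for Step2 against Step1, where that of all genes tested was −0.04, −0.04 and 0.00. In the last comparison 6 of the 7 were higher, *Crk* being the exception at −0.27 ± 0.41, and the adjusted p was 0.999 for each of the 7 by limma. This count and its median hung on single libraries: without Step1 library 2, 4 were higher and 3 lower with a median of 0.02, and without Step2 library 2 all 7 were higher with a median of 0.12 and *Crk* at 0.12. Without Step2 library 1 the median was 0.06. The median for Step2 against Con turned to −0.14 without Con library 1 and to −0.01 with 1 read per position and strand. Step2 and Step1 are each set against the same Con libraries. Summed over the 7 genes, ends were 772 and 800 CPM in Step2, 759 and 733 CPM in Step1, and 795 and 849 CPM in Con. Step1 was below Con and below Step2 in this sum without overlap, and Step2 overlapped Con. *Dab1* and *Reln* make up most of it.

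**Figure D3:**
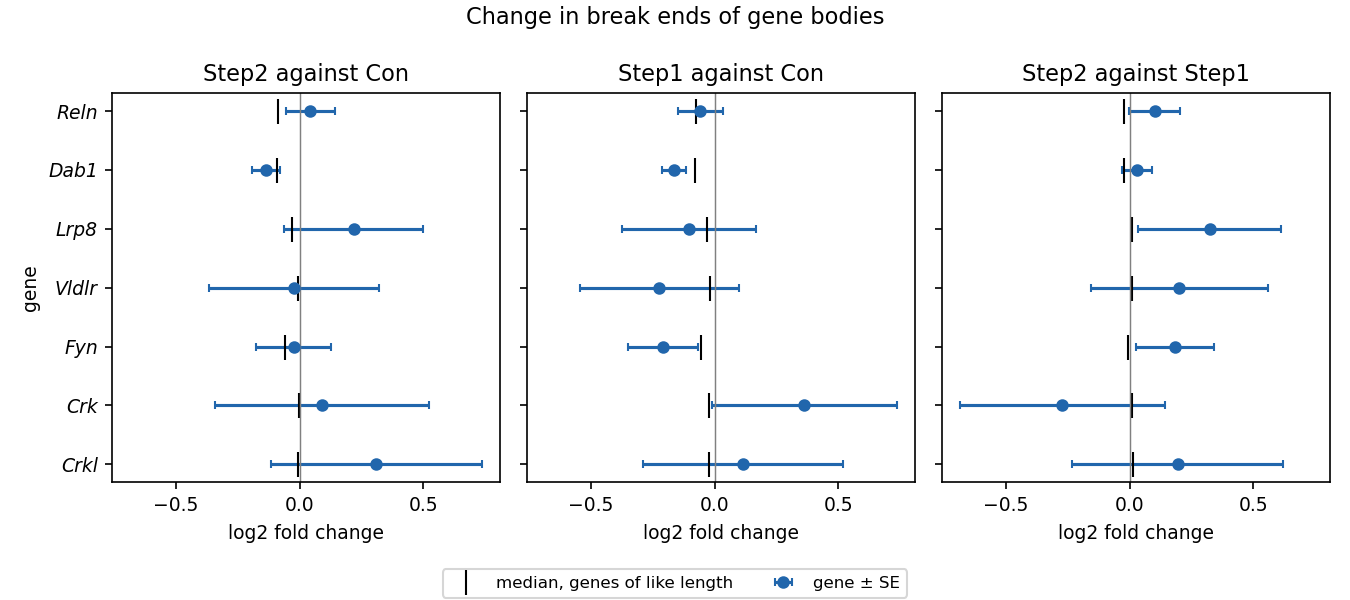
Log2 fold change of break ends in each gene body, with its standard error, for Step2 against Con, Step1 against Con and Step2 against Step1. The short black bars give the median of genes of 0.5 to 2 times the same length, and among the differences from Con that of *Dab1* is the most precise.

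Break ends fell on both strands alike. The share of ends on the gene's own strand, pooled over the libraries, ran from 45.04% in *Crk* (95% Wilson interval 36.8 to 53.6) to 51.2% in *Crkl* (42.5 to 59.8). In *Reln* it was 49.4% (47.3 to 51.5) and in *Dab1* 49.0% (47.6 to 50.3), and each of the 7 intervals included 50%. The minus-strand excess at the *Fyn* start was therefore not seen over the *Fyn* body as a whole, where the share was 48.4% (45.2 to 51.7).

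Most ends lay in introns, as most of each gene does. In *Reln*, 95.4% of ends were intronic, where introns make up 94.8% of the body. *Dab1* had 99.1% of its ends in introns, against 99.3% of the body. Of 14 intervals for coding exons and other exons, 3 excluded the share of the body: other exons of *Crk*, other exons of *Lrp8* and coding exons of *Vldlr*. The coding exons of *Vldlr* held 12.4% of its ends (8.22 to 18.1) in 6.94% of its body. In *Crk* the last exon block, chr11:75703366-75706908, held 32 ends or 24.4% (17.9 to 32.4) in 12.8% of the body. By library these were 8 and 2 ends in Step2, 7 and 2 in Step1, and 5 and 8 in Con, so the groups overlapped.

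Divided into 10 equal parts from start to end, the 2 longest genes were covered most evenly. Each part of *Dab1* held between 9.04% and 10.7% of its ends, and each part of *Reln* between 8.20% and 12.2%. Part 1 of *Fyn* held 189 ends or 20.4% (17.9 to 23.1), and 82 of these ends lay within 1 kb of the dense start. In *Vldlr* part 1 held 3.53% (1.63 to 7.49). Part 10 of *Lrp8* held 15.3% of its ends, and parts 9 and 10 of *Crk* held 16.8% and 16.0%. Of 70 such intervals, 13 excluded 10%.

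In *Reln* part 2 held 88 of the ends of Con library 2, or 40.3 CPM, and this part contains the position with 26 reads from that library.

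**Figure D4:**
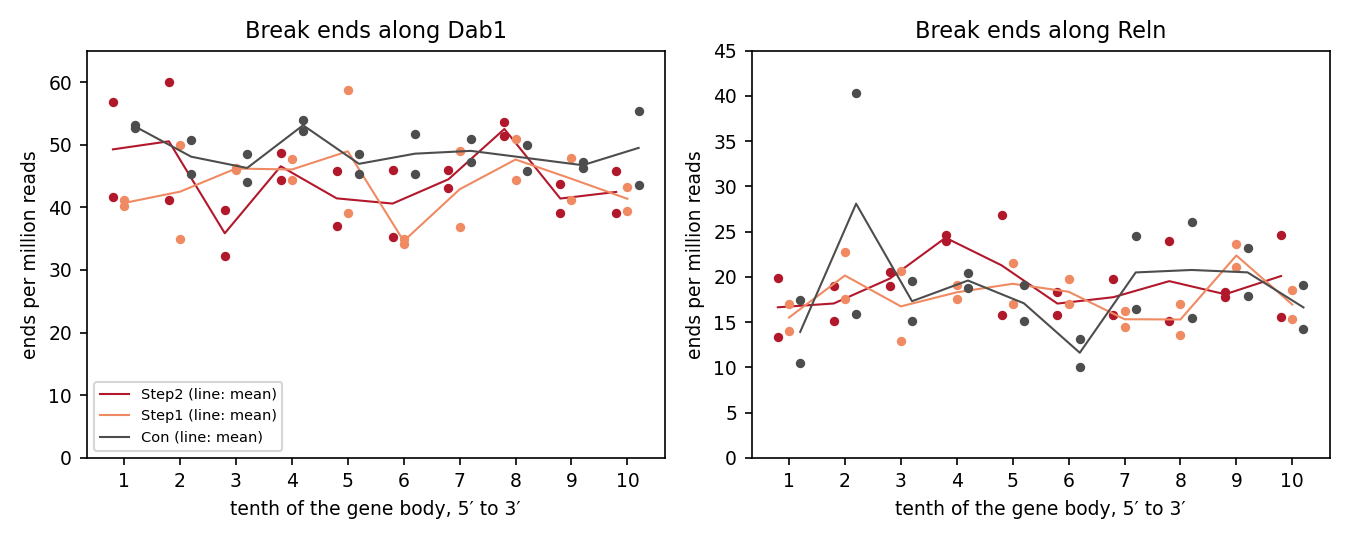
Break ends (CPM) in 10 equal parts of *Dab1* (left) and *Reln* (right), from start to end of the gene. Points are libraries and lines are the means of Step2, Step1 and Con; most means of *Dab1* in Con lie above those of Step2 and Step1, and the highest point of *Reln* is part 2 in Con library 2 at 40.3 CPM.

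Few break positions recurred between libraries. Positions found in at least 2 libraries numbered 34 of 4343 in *Dab1*, 13 of 1723 in *Reln*, 16 of 724 in *Fyn* and 2 of 143 in *Vldlr*. They numbered 0 in each of *Lrp8*, *Crk* and *Crkl*, with 252, 117 and 108 positions. Of the 16 in *Fyn*, 7 lay in the 300 bases of its start window. Repeats within a library were more frequent in Con: positions with at least 5 reads over the 7 genes numbered 4 and 4 in Step2, 4 and 6 in Step1, and 14 and 31 in Con. They held 2.04% and 2.20% of the members' reads in Step2, 1.33% and 2.67% in Step1, and 5.31% and 13.5% in Con.

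Further genes of the pathway were read from a list of 64, in 6 role groups, of which 55 passed the filter on low counts. None was called in any comparison by limma. At an unadjusted p under 0.05 by limma, the list held 4 genes for Step2 against Con, where 7.77% of all genes tested did so. For Step1 against Con it held 3, against 7.08% of all genes, and for Step2 against Step1 it held 2, against 3.42%. Beside these shares, such counts are no result about the list. Against Con, 37 were lower and 18 higher in Step2, and the median difference was −0.12 on the log2 scale. In Step1, 41 were lower and 14 higher, with a median of −0.09. Between Step2 and Step1, 29 were higher and 26 lower, with a median of 0.03. Over all genes tested 54% were lower in Step2 than in Con and 54.7% in Step1.

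In 5 of the 6 role groups the gene with the most ends is described. *Adamts3* encodes a protease that cleaves and inactivates reelin, and its log2 fold change was −0.02 ± 0.16 for Step2 and −0.07 ± 0.14 for Step1 against Con. *Grin2b*, the NMDA receptor subunit whose channel reelin signalling modulates, had 196 and 184 CPM in Step2, 187 and 202 CPM in Step1, and 223 and 216 CPM in Con. Its values in Step2 and Step1 lay below both Con libraries, where 21.7% of all genes tested did so in Step2 and 21.3% in Step1. Of the 412 genes of 300 to 600 kb, its length class, 71.4% were lower in Step2 than in Con and 70.9% in Step1. The log2 fold change of *Grin2b* was −0.21 ± 0.10 for Step2 (adjusted p = 0.617 by limma) and −0.18 ± 0.08 for Step1 (adjusted p = 0.682 by limma). *Tiam1*, an exchange factor for Rac, had 0.13 ± 0.13 for Step2 and 0.09 ± 0.12 for Step1.

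*Socs6*, of the family that targets phosphorylated Dab1 for degradation, had a log2 fold change of 0.00 ± 0.14 for Step2 and −0.13 ± 0.13 for Step1 against Con. *Ank3*, the scaffold of the axon initial segment, had 260 and 241 CPM in Step2, 249 and 249 CPM in Step1, and 279 and 266 CPM in Con. Its fold changes were −0.12 ± 0.08 for Step2 and −0.13 ± 0.07 for Step1 on the log2 scale. Of the 154 genes of 600 to 3000 kb, to which *Ank3* belongs, 83.1% were lower in Step2 than in Con and 81.8% in Step1. No difference among these named genes passed the test.

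The genes whose CPM varied most like that of the 2 longest members were sought among the 377 genes with at least 300 ends per library on average. For *Dab1* the closest were *Nrg1* (Pearson r = 0.975, 1069 kb), *Csmd1* (0.972, 1643 kb) and *Tenm2* (0.969, 1229 kb) over the 6 libraries. For *Reln* they were *Cfap299* (0.896), *Slit3* (0.878) and *Gabrg3* (0.872). These are the highest of 377 values over 6 points that share library depth and group, so they are given without a p-value. *Nrg1*, *Csmd1* and *Tenm2* all belong to the class of 600 to 3000 kb, most of which was lower in Step2 and Step1 than in Con.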

How the data were processed

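Per the submitters' processing notes, reads were demultiplexed, stripped of PCR duplicates by their molecular identifier and mapped to mm10 with Bowtie2, SAMtools and bedtools, whose versions the labels leave out. The deposited files list 1 read per line with its mapping quality score, which ran from 11 to 42. Here the 5′ end of each read was counted over GENCODE vM21 protein-coding gene bodies on chromosomes 1 to 19 and X, which gave count data per gene. Counts were scaled by reads outside 26 piled-up windows of 10 kb, more than 20 times the median window. Genes with at least 10 ends in at least 2 libraries were tested with limma voom (limma 3.58.1, R 4.3.3), with 1 mean per group over the 6 libraries, a two-sided test and Benjamini-Hochberg adjustment at 0.05 over all genes tested. The fit was tested on simulated data. Poisson and Wilson intervals at 95% came from SciPy 1.17.1. Since 2 libraries against 2 cannot go below p = 0.33 in an exact two-sided permutation test, shares were not tested.

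The members and the wider list were chosen with earlier results of these data known. All members were named, and in the wider list the gene with the most ends in each role group, besides any called; for 1 role group it is not reported here. The deviations of same-numbered libraries correlated across genes at r = 0.033, 0.005 and −0.005. Counting error in genes with few ends lowers such values, so they cannot tell whether replicate numbers pair the libraries. Alternatives were library scaling, 1 read per position, mapping quality, filters, limma-trend, a replicate block, GC content, sequencing run, the densest position and each library left out.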

Additional observations from a re-analysis of the deposited data

How the results depend on the processing

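The count of genes called, 13 for Step2 against Con, was 5 without a filter, 22 with at least 50 ends, 33 by limma-trend, 8 after the GC smooth and 3 in sequencing run 1, and 1 to 106 with 1 library left out. The high end came without Con library 1, which gave 106, and 7 were called without Con library 2, 1 without Step2 library 1 and 2 without Step2 library 2. For Step1 against Con, 17 were called, against 9 with median-of-ratios scaling, 10 without a filter, 11 after the GC smooth, 4 in run 1 and 2 to 148 with 1 library left out (148 without Con library 1, 2 without Con library 2). For Step2 against Step1, 6 were called, against 2 at a mapping quality score of 30, 3 without a filter, 10 by limma-trend, 3 after the GC smooth, 3 without the densest positions and 2 to 8 with 1 library left out. The cause was not tested.

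A replicate block, which treats same-numbered libraries as pairs, called 43 genes for Step2 against Con, 38 for Step1 against Con and 11 for Step2 against Step1, and 0 members. Whether the libraries are pairs cannot be told here.

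The members called stayed at 0 under each setting run, leaving out a library included, with 1 exception: with 1 read per position, *Dab1* was called for Step1 against Con, which makes 1 member. With 1 library left out, the median log2 fold change of the members ran from −0.14 (without Con library 1) to 0.15 (without Step2 library 2) for Step2 against Con, from −0.18 (without Step1 library 1) to −0.03 (without Step1 library 2) for Step1 against Con, and from 0.02 (without Step1 library 2) to 0.18 for Step2 against Step1. With 1 read per position it was −0.01 for Step2 against Con. In run 1 alone it was −0.00 for Step1 against Con, and for Step2 against Step1 it was 0.31 in run 1 and 0.09 in run 2. At least 50 ends left 4 members tested, and depth limits *Crk*, *Crkl* and *Vldlr* most.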
